A study of Mus musculus with 5 samples.

Results

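Mitosis and G2 genes were followed across 5 mouse LLC libraries, as 32 genes of 13979 whose symbols are shared by the 3 tables that together hold every group. The 32 genes were a list of names, grouped by function: cyclins and kinases of mitotic entry, spindle checkpoint and kinetochore genes, kinesins and other spindle genes, cytokinesis genes, genes of mitotic exit, and MKI67 and TOP2A. All 32 were found, and all 32 stood above the minimum level in every comparison. LLC is a Lewis lung carcinoma cell line of C57BL/6 mice. The groups were Control (saline in the study's methods), BMN (BMN673, also called talazoparib, an inhibitor of PARP enzymes), PAZA (a polymer carrying 5-azacytidine, an inhibitor of DNA methyltransferases) and BMN loaded into PAZA, as BMN/PAZA low dose and BMN/PAZA high dose. The dose was 0.25 mg/kg for BMN, PAZA and the low-dose combination and 2 mg/kg for the high-dose combination, by the results text and figure captions and not by the methods. By the methods for LLC tumors, injections were by vein, 5 times at intervals of 3 days. The hosts were female C57BL/6 mice of 4 to 6 weeks with tumors under the skin, and tumors were collected 1 day after the last injection. The sample labels instead describe cultured LLC cells treated for 72 h. Each group had 1 library, and neither the number of animals behind a library nor any pooling is given in the sources used here. There was thus no measure of biological or technical spread. All differences are descriptions of these libraries, without a test, and the direction of any of them could turn in a second tumor.

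A dividing cell enters mitosis when cyclin-dependent kinase CDK1, bound to A- and B-type cyclins, becomes active. Aurora and Polo-like kinases then build the spindle, kinetochores attach chromosomes to it, and the spindle checkpoint holds back the anaphase-promoting complex until attachment is complete. The complex then marks cyclin B and securin for destruction, sister chromatids part and the cell divides. Transcription of many of these genes peaks in G2 and M, and is known to be driven by the MuvB complex with B-MYB and by FOXM1, and to be shut in resting cells by the DREAM complex. MuvB reads a short element called CHR, often with upstream CCAAT boxes bound by NF-Y. PARP inhibitors trap PARP on DNA and break replication forks, and azacytidine traps DNA methyltransferases. Both kinds of drug are known to hold cells in S phase and G2.

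The promoters carry letters that the members share and that the choice of members did not use. RefSeq promoter windows on GRCm38.p6, from 250 bases before to 50 bases after a start site, were matched by symbol for 27 of the 32 members (28 windows, since PRC1 has more than 1). The 5 without a window were CCNA2, AURKB, KIF20A, TPX2 and FOXM1. The CHR was searched as TTTGAA and the CCAAT box as CCAAT, each on both strands, and the 2 motifs can overlap by 1 base at most. The CHR letters were in the windows of 20 of 27 members (74.1%), against 20.2% of all 27025 genes in the promoter table and 14.6% of the 9388 other genes at or above the minimum level here. Within 50 bases of the start site the letters were in 18 of 27 members (66.7%), against 5.72% of all genes. CCAAT was in 21 of 27 (77.8%), against 41.1% of all genes. Both motifs were in 18 of 27 (66.7%), against 7.97%. Neither was in the windows of BIRC5, MAD2L1, NUF2 and NUSAP1.

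Stretches from 190 bases before to 30 bases after the start site are shown for members whose levels the results turn on, written along the gene's own strand, 5′ to 3′. Capitals mark each match to TTTGAA or CCAAT or to its reverse complement. CDK1, CCNB2, CDC20, KIF23, TOP2A and MKI67 hold both motifs. CCNB1 holds CCAAT alone and BIRC5 holds neither.
CDK1, chr10:69352883-69353102 (- strand): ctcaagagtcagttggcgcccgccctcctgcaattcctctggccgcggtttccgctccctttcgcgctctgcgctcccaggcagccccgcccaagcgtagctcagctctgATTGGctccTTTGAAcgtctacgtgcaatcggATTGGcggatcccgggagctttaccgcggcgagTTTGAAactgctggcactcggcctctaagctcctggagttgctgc
CCNB2, chr9:70421525-70421744 (- strand): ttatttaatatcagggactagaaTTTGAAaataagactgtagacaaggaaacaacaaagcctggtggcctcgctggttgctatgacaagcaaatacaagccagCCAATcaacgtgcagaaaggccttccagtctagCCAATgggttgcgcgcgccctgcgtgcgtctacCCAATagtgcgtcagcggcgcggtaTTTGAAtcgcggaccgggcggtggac
CDC20, chr4:118437314-118437533 (- strand): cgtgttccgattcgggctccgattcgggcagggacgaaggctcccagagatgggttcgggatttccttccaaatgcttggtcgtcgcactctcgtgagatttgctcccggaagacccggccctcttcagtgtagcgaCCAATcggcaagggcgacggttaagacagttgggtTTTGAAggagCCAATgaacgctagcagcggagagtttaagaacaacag
KIF23, chr9:61946770-61946989 (- strand): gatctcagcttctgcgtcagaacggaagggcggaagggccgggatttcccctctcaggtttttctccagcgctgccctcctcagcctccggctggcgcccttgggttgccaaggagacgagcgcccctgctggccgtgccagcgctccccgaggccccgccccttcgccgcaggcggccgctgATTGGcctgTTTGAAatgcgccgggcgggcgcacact
TOP2A, chr11:99024160-99024379 (- strand): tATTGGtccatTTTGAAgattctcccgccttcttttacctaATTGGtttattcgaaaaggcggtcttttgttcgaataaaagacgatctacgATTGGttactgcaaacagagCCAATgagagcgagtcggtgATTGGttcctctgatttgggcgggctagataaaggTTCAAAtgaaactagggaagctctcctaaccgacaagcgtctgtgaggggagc
MKI67, chr7:135716350-135716569 (- strand): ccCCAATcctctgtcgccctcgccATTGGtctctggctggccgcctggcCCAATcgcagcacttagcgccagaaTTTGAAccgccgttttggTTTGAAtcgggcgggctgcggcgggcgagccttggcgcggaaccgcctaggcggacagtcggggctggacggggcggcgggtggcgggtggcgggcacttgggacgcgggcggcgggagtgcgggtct
CCNB1, chr13:100786457-100786676 (- strand): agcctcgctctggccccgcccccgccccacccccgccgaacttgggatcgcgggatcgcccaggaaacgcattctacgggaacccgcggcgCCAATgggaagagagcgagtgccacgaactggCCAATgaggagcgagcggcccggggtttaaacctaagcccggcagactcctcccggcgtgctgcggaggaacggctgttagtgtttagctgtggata
BIRC5, chr11:117849047-117849266 (+ strand): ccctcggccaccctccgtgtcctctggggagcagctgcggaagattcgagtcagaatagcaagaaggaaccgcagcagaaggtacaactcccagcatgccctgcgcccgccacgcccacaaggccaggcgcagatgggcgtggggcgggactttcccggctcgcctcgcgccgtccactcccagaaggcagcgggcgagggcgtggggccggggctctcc
Counted from the start site, the CCAAT matches of CDC20 open at -53 and -8, with its CHR between them at -18. In KIF23 the inverted CCAAT opens at -7 and the CHR at base 3 from the RefSeq start. In MKI67 both CHR matches lie further upstream, at -116 and -98. A match is a run of letters, not a measured binding site, and a start site in RefSeq need not be the one used in LLC. For 20 of the 28 windows, bases just after the start were found near the 5′ end of a GENCODE transcript of the gene. The windows of KIF23, MKI67 and BIRC5 were not among these 20, so positions in them hold for the RefSeq start alone.

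**Figure D1:**
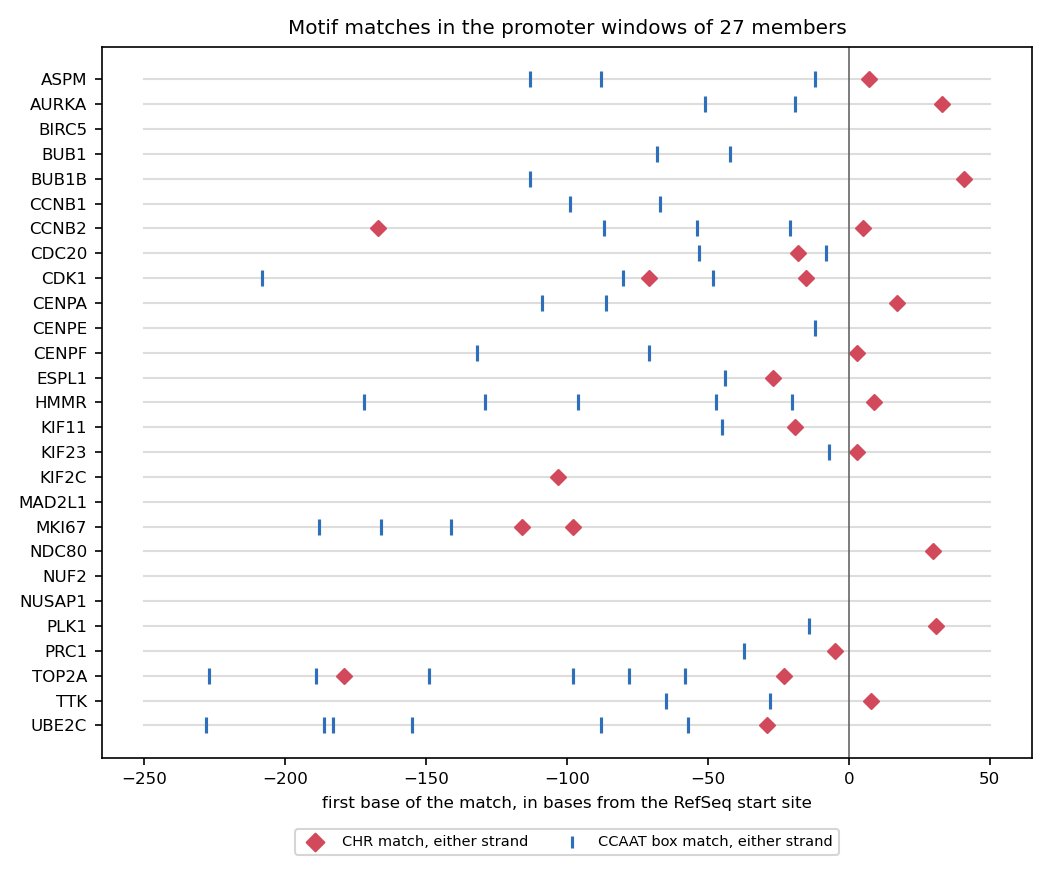
Positions of the motif matches in the promoter windows of the 27 matched members, in bases from the RefSeq start site (vertical line); red diamonds are CHR matches and blue ticks CCAAT matches, on either strand. CHR matches lie mostly within 50 bases of the start, as in 18 of 27 members. In members with both motifs, CCAAT ticks lie upstream of the CHR nearest the start, except the tick at -8 in CDC20. In other members CCAAT ticks are missing, as in KIF2C and NDC80, or stand without a CHR, as in CCNB1.

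No unit is named for the deposited values, which were taken as FPKM (fragments per kilobase of transcript, relative to the size of the library). Levels are these values scaled so that each library sums to 1e+06 over the shared symbols. They can be compared between genes. Columns came from tables the authors scaled separately, so every comparison here is set across tables except PAZA against Control and the high dose against BMN. Read counts were not used here and the depth is unknown, so no counting error can be attached to a level. From the commonest ratio of the weakest genes, 1 fragment in the BMN library weighed 0.71 of 1 fragment in the BMN/PAZA low-dose library and 0.72 of 1 in the high-dose library, and 1 fragment of Control weighed 0.98 of 1 of PAZA. A lighter fragment goes with a deeper library at like composition. Mitochondrial ribosomal RNA and 7SK together took 29.4% (BMN) to 38.1% (BMN/PAZA high dose) of the scaled total, which lowers all other genes of the high-dose library. The median log2 ratio to Control of 10092 genes present in all libraries was -0.12 in PAZA, 0.09 in BMN, -0.10 in the low-dose and -0.26 in the high-dose combination. Members are therefore read against the median of all genes in the same comparison.

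Markers of other cells were in every library. Summed over 6 leukocyte markers, the level lay between 144 (BMN/PAZA high dose) and 221 (BMN), with none of the 6 at 0, and over 8 macrophage markers between 335 (BMN/PAZA high dose) and 480 (BMN), again with none at 0. The sum of 8 fibroblast markers was 316 in Control, 539 in PAZA, 822 in BMN, 320 in the low-dose and 355 in the high-dose combination. Skeletal muscle markers summed to 12.2, 62.1, 190, 11.2 and 215 in the same order, and 6 epidermal keratinocyte markers to 89.7, 8.94, 324, 2.99 and 16.8. Sums of 8 T cell markers were 22.0, 28.7, 14.3, 8.96 and 3.85, of 5 neutrophil markers 76.1, 127, 68.6, 126 and 235, of 6 endothelial markers 36.3, 62.5, 57.2, 42.8 and 42.0, and of 5 adipocyte markers 45.8, 114, 92.7, 55.9 and 66.7. Of these lists, 1 T cell marker was at 0 in Control, 1 in the low-dose and 3 in the high-dose combination, and 3 muscle and 3 epidermal markers were at 0 in the low-dose combination. Between 1 and 2 adipocyte markers were at 0 in each library. Stromal and immune genes at these levels are at odds with a pure culture of LLC cells. The libraries are labelled as lung, yet 6 genes of lung epithelium (the surfactant genes SFTPA1, SFTPB, SFTPC and SFTPD, SCGB1A1 and NKX2-1) were not among the shared symbols, and all 6 were listed at 0 in both libraries of the table of BMN and the low-dose combination. The BMN library thus held the most fibroblast and epidermal marker RNA, and at this scaling it also held the most RNA of most mitotic genes. The part of these cells in the levels was not tested, and fewer dividing cells and less RNA per dividing cell cannot be told apart in bulk RNA.

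Most mitotic genes lay in the upper part of the range of levels, with CDK1 above 96.4% of the shared genes in Control and FOXM1 (54.1%), TTK (54.1%) and ESPL1 (43.3%) near the middle. The 32 members together took 0.242% of the scaled total in Control, 0.263% in PAZA, 0.303% in BMN, 0.226% in the low-dose and 0.214% in the high-dose combination. Their median level was 53.2, 54.6, 60.5, 46.0 and 44.9 in that order. At this scaling BMN was highest and the combinations lowest, but the order depends on the scaling. Scaled by the median ratio to Control, the summed level was 2424 in Control, 2847 in PAZA, 2845 in BMN, 2415 in the low dose and 2554 in the high dose, so that PAZA was level with BMN and the high dose was above Control. Gene by gene at the first scaling, BMN was the highest of the libraries for 21 of 32 members, against 36.8% of all genes, and the lowest for 0 of 32, against 10.8% of all genes. PAZA was highest for 6 members (14.9% of all genes), the low dose for 3 (18%), Control for 1 (21.7%) and the high dose for 1 (8.61%). The low dose was lowest for 13 members, against 16% of all genes, and the high dose for 11, against 35.0%, so that the latter count was that of genes at large. Control was lowest for 5 (17.1%) and PAZA for 3 (21.1%). With the median scaling BMN was highest for 15 members and lowest for 1, against 21.7% and 20.7% of all genes, PAZA was highest for 10 (19.2%), the low dose was lowest for 16 (18.8%) and the high dose for 3 (16.8%). The distance from lowest to highest library was 0.75 in log2 for the median member. It was 0.78 for the median of 12090 genes at a level of 1 or more in any library. Members were not matched to genes of like level, so these medians do not rank mitotic genes against genes at large.

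**Figure D2:**
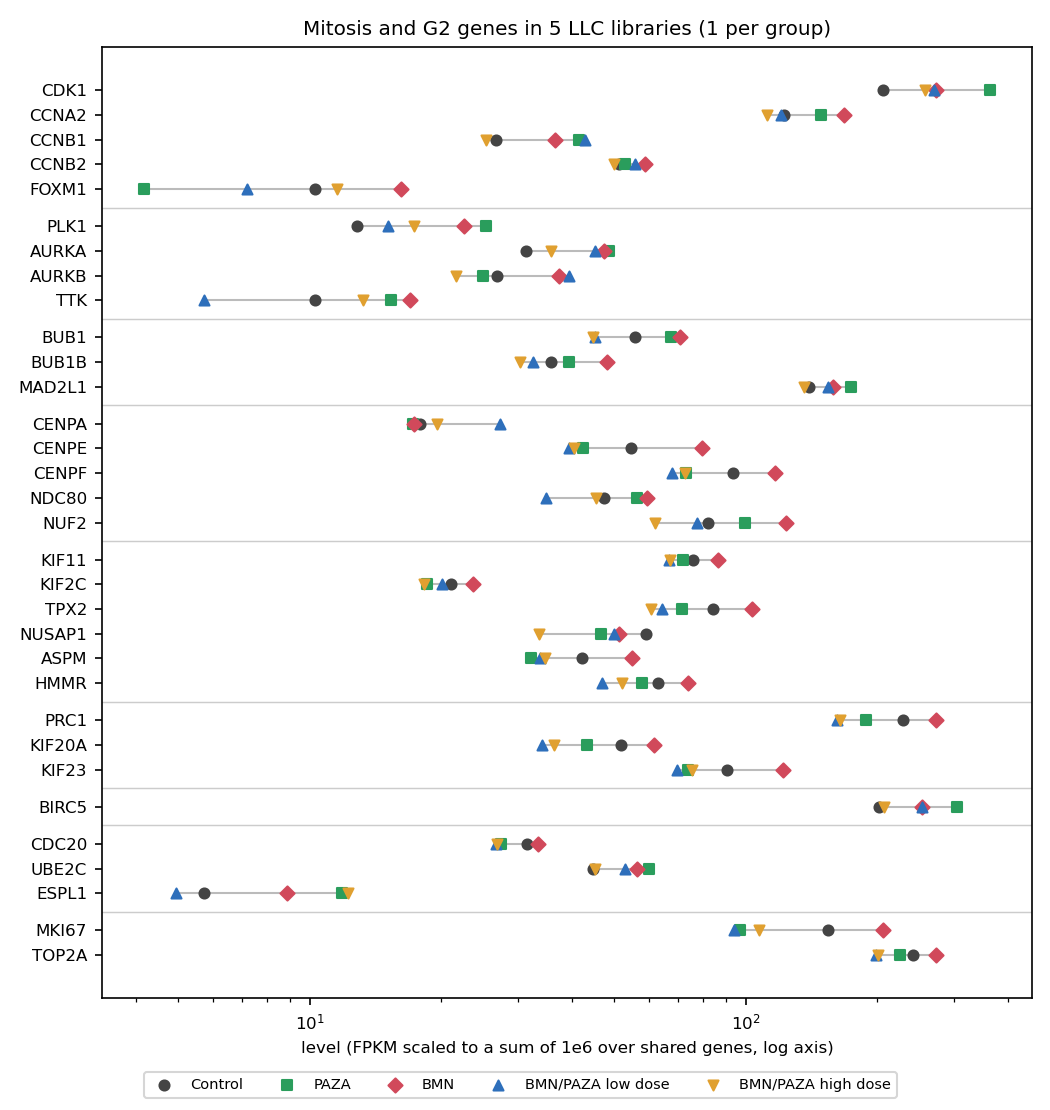
Level of each member in the 5 libraries, on a log axis, with members grouped by role (top to bottom: entry, kinases, checkpoint, kinetochore, spindle, central spindle, BIRC5, exit, and MKI67 with TOP2A) and 1 point per library; the gray line spans lowest to highest. BMN (red) lies rightmost for 21 of 32 members, while PAZA (green) lies rightmost for CDK1, PLK1, AURKA, MAD2L1, BIRC5 and UBE2C.

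CDK1, the kinase that starts mitosis, had a level of 207 in Control, 363 in PAZA, 273 in BMN, 270 in BMN/PAZA low dose and 258 in BMN/PAZA high dose. All treated libraries were above Control and PAZA was far above the rest. Its partner CCNB1 (cyclin B1) was at 26.8, 41.6, 36.5, 42.9 and 25.4 in the same order. CCNB1 thus separated the combinations, the low dose being at the PAZA level and the high dose at the Control level. CCNB2 (cyclin B2) was at 51.3, 52.9, 58.7, 55.7 and 49.9, the narrowest range of all members. CCNA2 (cyclin A2), which acts from S phase into mitosis, was at 122, 149, 168, 121 and 112. It was highest in BMN, and the combinations were at or below Control. FOXM1, a transcription factor of G2 and M genes, was at 10.3, 4.17, 16.2, 7.20 and 11.6. Of all members FOXM1 spanned the widest range, with BMN 3.88-fold above PAZA.

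The mitotic kinases did not move as 1 group. PLK1 (Polo-like kinase, needed for centrosome maturation and mitotic entry) was at 12.8 in Control, 25.3 in PAZA, 22.7 in BMN, 15.1 in the low-dose and 17.4 in the high-dose combination. AURKA (Aurora A, a centrosome and spindle kinase) was at 31.4, 48.7, 47.4, 45.1 and 35.8. Both were lowest in Control and highest in PAZA. AURKB (Aurora B, the kinase of the chromosomal passenger complex) was at 26.8, 25.01, 37.4, 39.4 and 21.6. Here BMN and the low dose stood above the others, and the high dose was lowest. Its partner in that complex, BIRC5 (survivin), was at 202, 305, 254, 253 and 208, and thus highest in PAZA, where AURKB was below Control. TTK (MPS1, which starts the checkpoint signal at kinetochores) was at 10.3, 15.3, 17.0, 5.73 and 13.3. The low-dose library stood well below every other library for TTK.

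Checkpoint and kinetochore genes were highest in BMN in 6 of 8 cases. BUB1 ranged from 44.6 in the high-dose combination to 70.7 in BMN, and BUB1B (BUBR1) from 30.4 to 48.1 between the same libraries. MAD2L1 (MAD2), the direct inhibitor of the anaphase-promoting complex, ranged only from 136 in the high dose to 174 in PAZA. The kinetochore motor CENPE was at 39.3 in the low dose and 79.3 in BMN, and CENPF at 67.9 and 117 in the same libraries. NDC80 and NUF2, which pair in the complex that grips microtubules, were also highest in BMN, at 59.4 and 124. NDC80 was lowest in the low dose at 34.9 and NUF2 in the high dose at 62.1. CENPA, the histone variant that marks centromeres, had another pattern, with 17.9 in Control, 17.3 in PAZA, 17.3 in BMN, 27.3 in the low dose and 19.6 in the high dose. Only the low-dose library stood apart for CENPA, and it was the highest.

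Spindle and kinesin genes followed BMN as well. Of the 6, KIF11 (Eg5, which pushes spindle poles apart) ranged from 66.6 in the low dose to 86.7 in BMN, KIF2C (a microtubule depolymerase) from 18.3 in the high dose to 23.7, TPX2 (an activator of Aurora A) from 60.8 in the high dose to 103, ASPM (a spindle pole protein) from 32.2 in PAZA to 54.9, and HMMR from 46.8 in the low dose to 73.6, all with BMN highest. NUSAP1, a microtubule-binding protein, was the exception, at 59.1 in Control, 46.6 in PAZA, 51.3 in BMN, 49.8 in the low dose and 33.5 in the high dose. The genes of the central spindle, on which the cell divides, had 1 order in common, with BMN above Control, Control above PAZA, PAZA above the high dose except in KIF23, and the low dose lowest. PRC1 ran from 162 in the low dose to 273 in BMN, KIF20A from 34.1 to 61.6 and KIF23 from 69.7 to 122.

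Genes of mitotic exit and the proliferation markers completed the list. CDC20, the activator of the anaphase-promoting complex, was nearly level at 31.5 in Control, 27.5 in PAZA, 33.4 in BMN, 26.7 in the low dose and 26.9 in the high dose. UBE2C, the complex's ubiquitin-conjugating enzyme, ranged from 44.6 in Control to 60.0 in PAZA. ESPL1 (separase, which cuts cohesin) was the weakest member in 3 of 5 libraries, at 5.72, 11.9, 8.88, 4.95 and 12.2. For ESPL1 the low-dose library was lowest and the high-dose library highest. MKI67, the gene of the Ki-67 antigen, was at 154, 97.0, 207, 94.2 and 108. The 3 libraries treated with PAZA or BMN/PAZA lay below Control for MKI67 and BMN lay above it. TOP2A (topoisomerase II alpha) was at 242, 226, 274, 199 and 201, again with BMN highest and Control next.

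MKI67 and CDK1 parted within single libraries, where no scaling between libraries enters. The MKI67 level was 0.746 of the CDK1 level in Control and 0.757 in BMN, against 0.267 in PAZA, 0.349 in BMN/PAZA low dose and 0.417 in BMN/PAZA high dose. PRC1 over CDK1 was 1.11 in Control and 1.0 in BMN, against 0.521, 0.6002 and 0.638. MKI67 over TOP2A was 0.638 and 0.756, against 0.428, 0.473 and 0.535. Control and BMN lay above the 3 libraries with PAZA in each of these ratios. The pairs were chosen after the levels were seen. The longest annotated transcript of MKI67 has 10061 bases and that of CDK1 has 4375.

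Differences between libraries were taken on log2(level + 1), and a gene was counted as past the threshold at 1.5-fold (0.58 in log2). In PAZA against Control, 6 of 32 members were at least 1.5-fold higher, against 11.6% of the 11465 genes compared, and 2 of 32 at least 1.5-fold lower, against 16.2%. The 6 were ESPL1 (0.94), PLK1 (0.93), CDK1 (0.81), CCNB1 (0.62), AURKA (0.62) and BIRC5 (0.59), and the 2 were FOXM1 (-1.13) and MKI67 (-0.66). The members' median was -0.06 and that of all genes -0.10, with 15 members higher and 17 lower, which turned to 19 and 13 when libraries were scaled by their median ratio to Control. Over the 17 members that overlap no other gene the median was 0.13, with 10 higher and 7 lower, and with 4 at least 1.5-fold higher and 0 lower. Some roles went 1 way and others were mixed. The 3 checkpoint genes were all higher, at 0.13 to 0.31, while all 6 spindle and kinesin genes were lower, at -0.07 to -0.38, and all 3 central spindle genes were lower, at -0.25 to -0.29. Of all genes 58.1% were lower, and KIF11 (-0.07), a spindle gene, lay above their median of -0.10. Of the entry genes 4 were higher and 1 lower, of the kinases 3 and 1, of the kinetochore genes 2 and 3, and of the exit genes 2 and 1. Spindle and cytokinesis genes outside the members were mixed, since 4 of 6 other cytokinesis genes were higher (median 0.08), and of 17 other spindle genes 7 were higher and 10 lower (median -0.05).

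In BMN against Control the members had the narrowest quartile range of the 8 comparisons, from 0.21 to 0.45. Of 32 members, 30 were higher, against 60.3% of all genes, with a median of 0.33 where all genes had 0.10. The exceptions were CENPA (-0.05) and NUSAP1 (-0.20). With libraries scaled by their median ratio to Control, 29 of 32 were still higher, with a median of 0.24 against 0.01. Most steps were small. At the 1.5-fold threshold stood 4 of 32 members, PLK1 (0.78), TTK (0.67), FOXM1 (0.61) and NUF2 (0.59), a share close to the 14.1% of all genes that were this much higher. The count was 2 of 32 under the median scaling, against 11.7% of all genes, and 6 of 32 with a pseudocount of 0.1, against 17.7%. None was this much lower, against 7.54% of all genes. Every role had a positive median, from 0.21 for the spindle genes to 0.63 for the mitotic kinases. Fibroblast markers were higher in the same comparison in 8 of 8 cases (median 1.24) and skeletal muscle markers in 6 of 6 (median 3.57). Epidermal (median 1.89), endothelial (median 0.75) and leukocyte markers (median 0.33) were each higher in 6 of 6 cases. T cell markers were lower in 4 of 5 (median -0.49). The part of these markers in the result was not tested.

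The combinations differed little from Control. In BMN/PAZA low dose 1 of 32 members was at least 1.5-fold higher (CCNB1, 0.66), against 12.2% of all genes, and 3 of 32 at least 1.5-fold lower (TTK, -0.75, MKI67, -0.71, and KIF20A, -0.59), against 14.8%. CENPA followed CCNB1 closely at 0.58, just under the threshold. The median of members was -0.21 and that of all genes -0.08, and 22 of 32 members were lower, against 56.4% of all genes. Over the 17 members that overlap no other gene the median was -0.07, with 8 higher and 9 lower, and 1 past the threshold each way. In BMN/PAZA high dose 1 of 32 was higher (ESPL1, 0.98), against 9.11%, and 1 of 32 lower (NUSAP1, -0.80), against 20.8%. PLK1 (0.41) was next highest and MKI67 (-0.52) next lowest. The members' median of -0.21 was that of all genes, -0.22, and 23 of 32 members were lower, against 67.5% of all genes. Scaled by the median ratio to Control, 13 members were higher and 19 lower in the low dose. At least 1.5-fold higher were then 4 of 32 members, against 15.1% of all genes, and at least 1.5-fold lower 2 of 32, against 11.4%. In the high dose 18 were higher and 14 lower under this scaling. These 4 comparisons share the Control library.

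**Figure D3:**
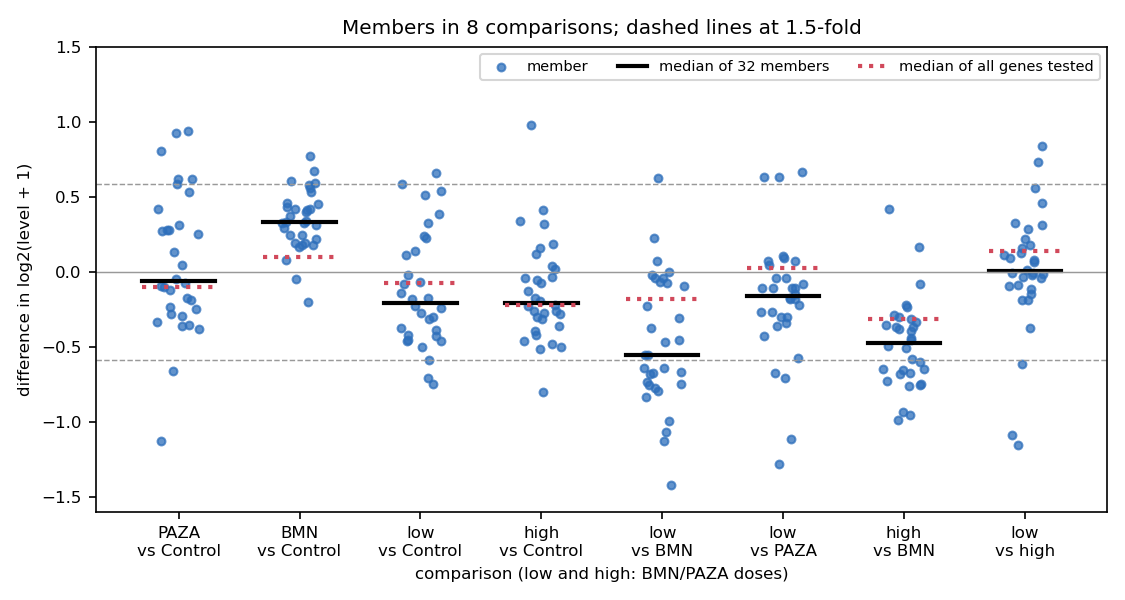
Difference in log2(level + 1) of each of the 32 members (blue points) in 8 comparisons, with the members' median (black bar), the median of all genes compared (red dotted bar) and the 1.5-fold lines (dashed). Members lie above the all-gene median in BMN against Control (0.33 against 0.10) and below it in the low dose against BMN (-0.55 against -0.18), where the 17 members that overlap no other gene had -0.23.

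Against BMN alone, most members were lower in both combinations. In the low dose 29 of 32 members were lower, against 63.6% of all genes, with a median of -0.55 against -0.18 for all genes, and 15 of 32 were at least 1.5-fold lower, against 21.1% of all genes. The lowest were TTK (-1.42), MKI67 (-1.13), FOXM1 (-1.07), CENPE (-0.997) and KIF20A (-0.84). Only CENPA (0.63) was at least 1.5-fold higher, 1 of 32 against 10.2% of all genes, and CCNB1 (0.23) and AURKB (0.07) were higher by less. Over the 17 members that overlap no other annotated gene the median was -0.23, only 0.05 below that of all genes, with 14 lower and 7 past the threshold. Of the 32, all 3 central spindle genes and 4 of 5 kinetochore genes were past the threshold. Of the 5 entry genes, CDK1 (-0.02) and CCNB2 (-0.08) were near the BMN level, CCNB1 was above it, and CCNA2 (-0.47) and FOXM1 were below it. Members of other roles within 0.1 of the BMN level, named after their values were seen, were BIRC5 (0.00), MAD2L1 (-0.04), NUSAP1 (-0.04), AURKA (-0.07), AURKB (0.07) and UBE2C (-0.09). Scaled by the median ratio to Control, 22 of 32 members were lower, with a median of -0.37 against -0.01, and 6 of 32 were past the threshold, against 13.9% of all genes. Fibroblast markers were lower in the same comparison in 8 of 8 cases (median -1.08), and all 6 epidermal markers compared were lower (median -5.37). Skeletal muscle markers were lower in 6 of 6 cases (median -3.57), endothelial markers in 5 of 6 (median -0.56) and leukocyte markers in 5 of 6 (median -0.32). Macrophage markers were instead higher in 5 of 8 (median 0.02) and neutrophil markers in 3 of 5 (median 0.37). The part of all these markers in the result was not tested.

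In the high dose against BMN, 30 of 32 members were lower, against 74.1% of all genes, with a median of -0.47. Here all genes also had a low median, -0.31, and the 13 of 32 members at least 1.5-fold lower stand against 27.1% of all genes. The lowest were NUF2 (-0.99), CENPE (-0.96), MKI67 (-0.94), AURKB (-0.76) and TPX2 (-0.75). None was at least 1.5-fold higher, against 6.71% of all genes, the highest being ESPL1 (0.42) and CENPA (0.17). The central spindle genes again lay together, at -0.68 to -0.75. Scaled by the median ratio to Control, 24 of 32 members were lower, with a median of -0.14 against 0.00, and 3 of 32 were past the threshold, against 11.6% of all genes. Fibroblast markers were lower in 7 of 8 cases (median -0.99), epidermal markers in 6 of 6 (median -4.28) and leukocyte markers in 6 of 6 (median -0.59). Skeletal muscle markers were instead higher in 6 of 7 (median 0.27). Of 5 neutrophil markers 2 were higher, S100A8 (2.03) and S100A9 (1.89), and 3 lower. The part of these markers in the result was not tested. Both comparisons share the BMN library, whose levels were the highest for 21 of 32 members.

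**Figure D4:**
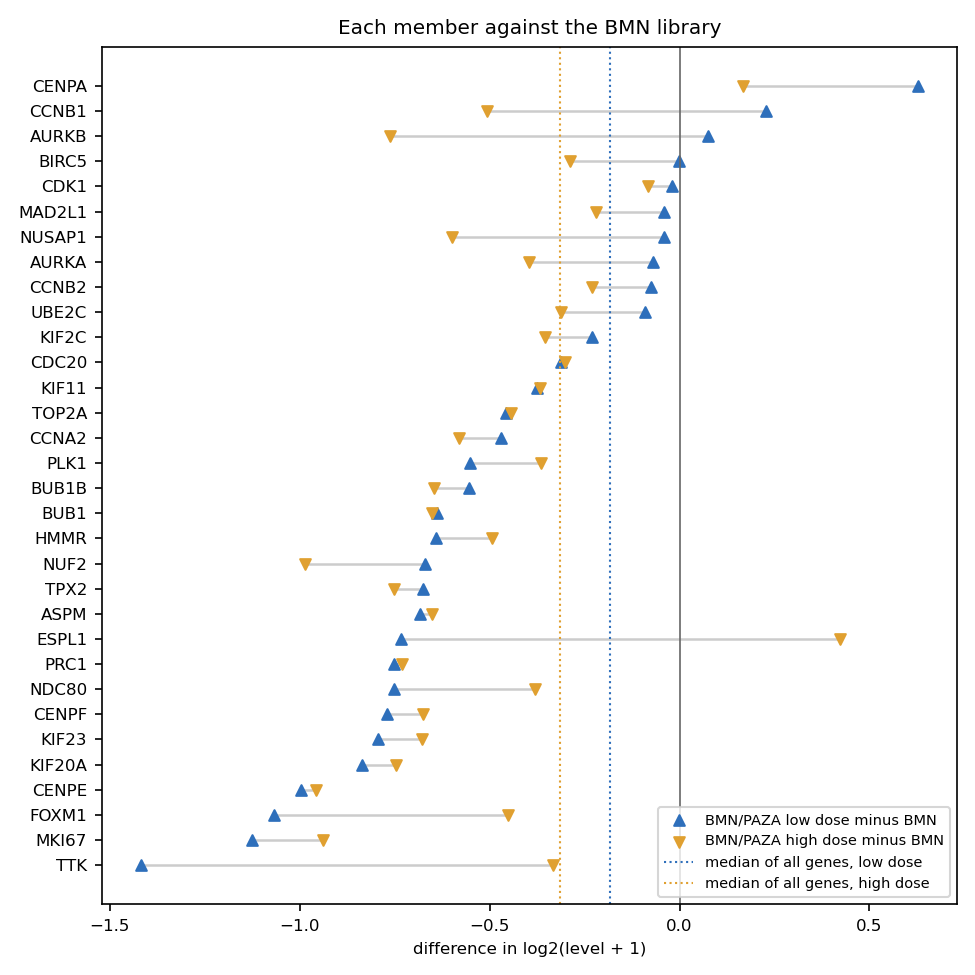
Difference in log2(level + 1) from the BMN library of each member in BMN/PAZA low dose (blue) and BMN/PAZA high dose (yellow), sorted by the low-dose value; dotted lines are the medians of all genes, -0.18 and -0.31. TTK, FOXM1, NDC80 and ESPL1 lie much lower in the low dose, while AURKB, CCNB1 and NUSAP1 lie lower in the high dose.

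In the remaining comparisons the low dose was set against the other libraries with PAZA. BMN/PAZA low dose against PAZA had 8 members higher and 24 lower, against 47.2% of all genes lower, with a median of -0.16 against 0.03 for all genes. In it 3 of 32 were at least 1.5-fold higher, FOXM1 (0.66), AURKB (0.63) and CENPA (0.63), against 10.1% of all genes. The 4 of 32 that were at least 1.5-fold lower were TTK (-1.28), ESPL1 (-1.11), PLK1 (-0.71) and NDC80 (-0.68), against 9% of all genes. BMN/PAZA low dose against BMN/PAZA high dose had 16 members on each side, where 65.8% of all genes were higher in the low dose. The members' median was 0.003 and that of all genes 0.14, and 22 of 32 members lay below the latter. The split was 9 higher and 23 lower when scaled by the median ratio to Control, and 12 higher and 5 lower over the 17 members that overlap no other gene (median 0.12). In this comparison 2 of 32 were at least 1.5-fold higher in the low dose, AURKB (0.84) and CCNB1 (0.73), against 13.6%, and 3 of 32 at least 1.5-fold lower, ESPL1 (-1.15), TTK (-1.09) and FOXM1 (-0.62), against 7.07%. Both counts lie near or below those shares of all genes. Under the median scaling 1 of 32 members was at least 1.5-fold higher, against 9.37% of all genes, and 3 of 32 lower, against 10.1%. Among the other members, the central spindle genes differed by -0.02 to -0.12 and CDC20 by -0.01.

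Other mitotic genes, listed by role, gave a wider view. Of 67 such genes 66 were in the tables. In BMN against Control 58 of 66 were higher, with a median of 0.33, and 9 were at least 1.5-fold higher and 0 lower. Over all genes these shares were 60.3% higher, 14.1% at least 1.5-fold higher and 7.54% at least 1.5-fold lower, so the 9 were at the general share. CDC25C, the phosphatase that activates CDK1, was at 9.51 in BMN and 2.71 in Control (1.504), and the kinesin gene KIFC1 at 9.05 and 3.35 (1.21). WEE1, the kinase that restrains CDK1, was the lowest at -0.40. In the low dose against BMN 56 of 66 were lower, against 63.6% of all genes, with a median of -0.50, and 25 were at least 1.5-fold lower, against 21.1%, and 0 higher, against 10.2%. The lowest was ZWINT, a kinetochore scaffold gene, at 122 against 274 (-1.16), and then CIT, citron kinase of cytokinesis (-1.15). In the high dose against BMN 62 of 66 were lower, against 74.1% of all genes, with a median of -0.50, and 28 were at least 1.5-fold lower, against 27.1%, and 0 higher, against 6.71%. By role, the median in the low dose against BMN was -0.64 for 17 spindle genes, -0.59 for 8 condensin genes and -0.43 for 6 cytokinesis genes. It was -0.32 for 19 kinetochore genes and -0.17 for 13 regulators of CDK1. CDCA8, INCENP and HASPIN, listed under the passenger complex, had -0.92, though HASPIN is a kinase gene and not a subunit. The members AURKB (0.07) and BIRC5 (-0.002) of that complex lay at the BMN level. In PAZA against Control the 66 genes had a median of 0.00, with 7 at least 1.5-fold higher, led by CENPM (1.33), against 11.6% of all genes, and 3 lower, led by CKAP5 (-0.91), against 16.2%.

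Subunits of the anaphase-promoting complex were compared with the members, in a list that also held its coactivator FZR1 and the ubiquitin-conjugating enzyme UBE2S. These 16 genes had a median of -0.01 in BMN against Control and 0.04 in the low dose against BMN, with CDC26 highest at 0.82 and ANAPC5 lowest at -0.91, where the members had 0.33 and -0.55. In the high dose 14 of 16 were lower than in BMN (median -0.27), against 74.1% of all genes (median -0.31), where the members had -0.47. Against Control the list had a median of -0.27 in the high dose, where all genes had -0.22 and the members -0.21. Both medians of the list were near those of all genes. Genes of G1 and S phase were set beside them. Of 28, 23 were higher in BMN than in Control (median 0.21, against 60.3% and 0.10 for all genes) and 25 were lower in the low dose than in BMN (median -0.33, against 63.6% and -0.18). The highest in BMN against Control was TYMS, thymidylate synthase, at 77.3 against 13.3 (2.45). The lowest in the low dose against BMN was PCNA, the clamp of DNA polymerase, at 424 against 951 (-1.17), and TK1, thymidine kinase, was the highest at 0.63. Reference genes, 15 housekeeping genes, had medians of 0.06 and 0.01 in these comparisons.

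Regulators of G2 and M transcription were themselves unlike each other. MYBL2 (B-MYB, the MuvB partner that activates these genes) was at 5.46 in Control, 12.5 in PAZA, 12.6 in BMN, 15.7 in the low dose and 8.67 in the high dose. It was lowest in Control and did not follow FOXM1. E2F8, a repressor of cell cycle genes, was at 31.0, 20.9, 56.9, 18.8 and 21.8. From highest to lowest, the libraries had the same order for E2F8 as for MKI67. LIN37, a MuvB subunit, was at 11.4 in BMN, 4.53 in Control and 3.06 in the low dose. TRP53 (p53) was at 1.57 in BMN and 2.87 in the low dose. Of 22 regulators compared, 7 were at least 1.5-fold higher and 1 lower in BMN than in Control, against 14.1% and 7.54% of all genes. In the low dose against BMN 1 was at least 1.5-fold higher and 7 lower, against 10.2% and 21.1%.

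The length of the transcript went with the difference in several comparisons. The members were divided at 3671 bases, their median for the longest GENCODE transcript, into 16 shorter and 16 longer. In PAZA against Control the shorter members had a median of 0.20 and the longer ones -0.11, and all genes divided at the same length had 0.02 and -0.26. In the low dose against BMN the medians were -0.27 and -0.68, with -0.07 and -0.31 over all genes. In the low dose against Control they were -0.04 and -0.35, with 0.01 and -0.19 over all genes. In BMN against Control, by contrast, they were 0.38 and 0.32, with 0.08 and 0.11 over all genes. In each of these comparisons the shorter and the longer members lay on the same side of their all-gene medians. Spearman's rho between length and difference was -0.38 over the 32 members in PAZA against Control and -0.32 over 11325 genes of the same libraries, as a description. For members and all genes it was -0.44 and -0.26 in the low dose against BMN, and -0.47 and -0.24 in the low dose against Control. In the low against the high dose it was -0.43 and -0.09, and in BMN against Control -0.04 and 0.06. The part of length in the split between CDK1, BIRC5 and AURKA on one side and MKI67, CENPE and ASPM on the other was not tested.

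**Figure D5:**
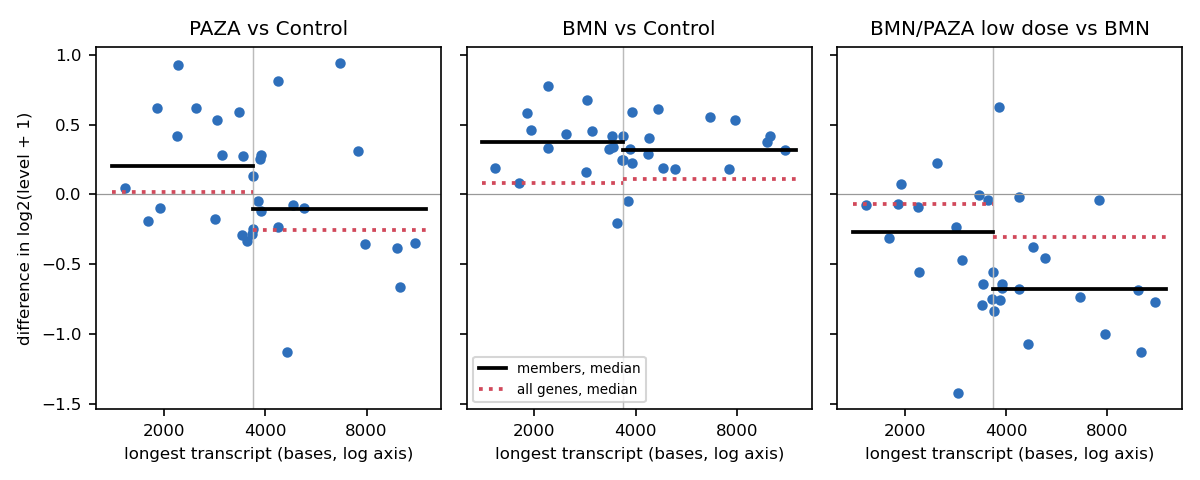
Difference in log2(level + 1) of each member (points) against the length of its longest GENCODE transcript in bases, on a log axis, in 3 comparisons; the vertical line is the members' median length, 3671 bases, and bars are medians of shorter and longer genes (black members, red dotted all genes). In PAZA against Control the bars step down from 0.20 to -0.11, and in BMN against Control they stay at 0.38 and 0.32.

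Members with and without the CHR letters can be set side by side for the 27 with a promoter. In the low dose against BMN the 20 with a match had a median of -0.55 (range -1.42 to 0.63) and the 7 without one -0.04 (range -0.997 to 0.23). In BMN against Control the medians were 0.33 and 0.34. In the high dose against BMN they were -0.37 and -0.60, the other way round. The ranges overlapped in each case. Overlap of genes on the map is a further limit. The genes lie on 15 chromosomes, and 15 of 32 members overlap another annotated gene, 6 of them on the same strand and 12 on the other. UBE2C overlaps the muscle gene TNNC2 and KIF20A overlaps CDC23 of the anaphase-promoting complex, both on the other strand, and whether strand was used in counting is not given in the sources used here. The other 17 overlap none. In BMN against Control the median of the 17 was 0.40 and in the high dose against BMN -0.49.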

How the data were processed

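RNA was sequenced from 5 groups with 1 library each. The authors deposited 5 tables of 2 groups each, made with HISAT2 and StringTie on GRCm38 per the submitters' processing notes, with versions and annotation not given in the sources used here. No unit is named in the deposited tables, and from their form the values were taken as FPKM. Control and PAZA came from 1 table, BMN and BMN/PAZA high dose from another and BMN/PAZA low dose from the table it shares with the high dose. The highest-mean row per symbol was kept, and each column was scaled to a sum of 1e+06 over 13979 shared symbols. Differences are in log2(level + 1), over genes at a level of 1 or more in either library. Values of 1 library in different tables differed by a constant for most genes. The low-dose values used were 3.26 and 3.41 times those of the same library elsewhere, a factor that the scaling removes. Between 0 and 416 genes of a pair of tables were more than 0.5% off it, and 0 of 32 members. No test was run, with 1 library per group. The scaling and ratio were run on simulated data made from the Control levels with known folds and little noise. The simulation held neither the shifts in composition between these libraries nor the counting error of weak genes, so it does not bear on them. The members and lists were chosen with earlier results of these data known. Levels in all libraries are given for CDK1, CCNA2, CCNB1, CCNB2, FOXM1, PLK1, AURKA, AURKB, MKI67, TOP2A, BIRC5, CDC20 and the 2 highest and 2 lowest members against Control. At most the 2 highest and 2 lowest genes of other lists are named, and other genes were chosen after their values were seen. Alternatives were other scalings, a pseudocount of 0.1, another table, no filter and, chosen after seeing the data, members without overlap. The tools were pandas 2.3.3 and numpy 2.4.6 under Python 3.11.15, with figures by matplotlib 3.10.9.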

Additional observations from a re-analysis of the deposited data

Results flagged for a closer look

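ESPL1, the separase gene, differed in opposite directions in PAZA against Control and in BMN/PAZA low dose against BMN. Its difference in log2(level + 1) was 0.94 in PAZA against Control and -0.73 in BMN/PAZA low dose against BMN. In BMN/PAZA high dose against BMN it was 0.42, the direction of PAZA against Control. Each rests on 1 library a side at levels of 4.95 to 12.2, and the difference between them was not tested. Among all 11138 genes compared in both, 3.29% lay past 1.5-fold in opposite directions, and 1 of 32 members did.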

How the results depend on the processing

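No paired analysis was possible because each group has 1 library. The members' median difference was recomputed in 8 comparisons under 7 settings. It moved by less than 0.2 in log2 in 51 of 56 cases. Scaling by the median ratio to Control and a sum without the 100 most abundant genes moved the high dose against Control from -0.21 to 0.0381 and 0.0478, and the high dose against BMN from -0.47 to -0.140 and -0.136, since they remove the shift of all genes in that library. They also turned the sign of the median of PAZA against Control (0.05 and 0.02) and of the low against the high dose (from 0.003 to -0.153 and -0.166). With members that overlap another gene left out, the low dose against BMN moved from -0.55 to -0.23, with 7 of 17 at least 1.5-fold lower; the cause was not tested. Under the median scaling 6 of 32 members were at least 1.5-fold lower in the low dose than in BMN, against 13.9% of all genes. In the high dose 3 of 32 were, against 11.6%. These counts stand in place of 15 and 13. Relative to all genes, BMN against Control stood at 0.23 to 0.30 and the low dose against BMN stood at -0.42 to -0.05. Leaving out members off a constant removed none and the low-value filter touches no member, so these settings say nothing about stability. Of 112 counts past 1.5-fold, 84 stayed within 1.5 times. Depth is unknown, so no level carries an error.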
